A study of Mus musculus with 4 samples.

Results

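The 5 mouse genes that encode the receptor chains for colony-stimulating factors are described here: Csf1r, Csf3r, Csf2ra, Csf2rb and Csf2rb2. The rule for membership is the gene symbol and uses no measured value, and it was applied to the 32285 gene features of each deposited matrix; all 5 were found in every library. The material was bone marrow cells positive for CD45.2 (the donor cell surface variant in many mouse transplants) and for Kit (the stem cell factor receptor, also called CD117), taken 10 weeks after transplantation, profiled by droplet single-cell RNA sequencing with barcoded surface antibodies. There were 4 groups with 1 library each, labelled as a control, as Mll3 deleted, as Mll4 deleted, and as Mll3/4 deleted for both. All groups share the transplantation and the selection for Kit. The labels give no allele, deleter strain, recipient strain, age of the mice or number of animals behind a library. Mll3 and Mll4 are histone methyltransferases that place the enhancer mark H3K4 monomethylation, and their genes are Kmt2c and Kmt2d.

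Csf1r is a receptor tyrosine kinase for M-CSF and interleukin-34, and it carries monocyte and macrophage development. Csf3r is the G-CSF receptor, a single-chain cytokine receptor of granulocyte precursors and neutrophils that is also present on early progenitors. Csf2ra is the alpha chain that binds GM-CSF, and it signals only when paired with a beta chain. Csf2rb is the common beta chain shared by the receptors for GM-CSF, interleukin-3 and interleukin-5, and Csf2rb2 is a mouse-specific copy beside it that pairs with the interleukin-3 receptor alpha chain only. B-cell development depends mainly on other cytokine receptors, those for interleukin-7 and Flt3 ligand.

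Csf3r (ENSMUSG00000028859) lies at chr4:126024550-126044440 on the plus strand, Csf2ra (ENSMUSG00000059326) at chr19:61223957-61228429 on the minus strand, Csf2rb (ENSMUSG00000071713) at chr15:78325752-78353847 on the plus strand and Csf2rb2 (ENSMUSG00000071714) at chr15:78282507-78305721 on the minus strand, in GENCODE M21 on GRCm38. Csf1r is ENSMUSG00000024621. The RefSeq promoter table of GRCm38.p6 gave usable entries for 3 of the 5 members. The 250 bases before the annotated start of each are printed. Over all kept cells of the Mll3/4-labelled library, Csf3r and Csf2rb2 were read far lower than in control, and Csf2ra less so. Spi1, the gene for the myeloid transcription factor PU.1, was also lower there, and any link to these sequences was not tested. Capitals mark GAGGAA, a PU.1-type core, on either strand. The windows are chr4:126024409-126024658 (plus strand), chr19:61228419-61228668 (minus strand) and chr15:78305722-78305971 (minus strand), each given 5′ to 3′ on the gene's strand. They end at the RefSeq start, which for Csf3r and Csf2ra lies inside the gene as GENCODE draws it, so part of each of those 2 windows is transcribed by the GENCODE positions.
Csf3r: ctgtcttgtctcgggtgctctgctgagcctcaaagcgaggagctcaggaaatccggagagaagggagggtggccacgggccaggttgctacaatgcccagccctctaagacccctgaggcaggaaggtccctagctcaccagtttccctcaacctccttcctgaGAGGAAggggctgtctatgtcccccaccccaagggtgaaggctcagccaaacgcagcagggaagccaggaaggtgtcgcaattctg
Csf2ra: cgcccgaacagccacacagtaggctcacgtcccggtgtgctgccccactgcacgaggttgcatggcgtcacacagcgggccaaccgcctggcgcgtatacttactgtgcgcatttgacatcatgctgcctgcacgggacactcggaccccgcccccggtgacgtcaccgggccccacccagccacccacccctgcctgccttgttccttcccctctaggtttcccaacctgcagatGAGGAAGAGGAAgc
Csf2rb2: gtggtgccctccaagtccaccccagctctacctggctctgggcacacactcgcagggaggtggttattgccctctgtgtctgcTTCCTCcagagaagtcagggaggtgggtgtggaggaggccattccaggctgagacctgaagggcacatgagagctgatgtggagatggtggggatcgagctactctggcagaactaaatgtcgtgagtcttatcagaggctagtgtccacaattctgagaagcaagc
The Csf3r window held 1 match, starting 86 bases before the RefSeq start site. The Csf2ra window held 2, starting 14 and 8 bases before the start, and the Csf2rb2 window held 1 on the opposite strand at 167 bases. GAGGAA on either strand was found in 7639 of 32851 promoter windows of this length (23.3%), so a match by itself is common. The C/EBP-type letters TTGCNNAA, found in 9.56% of all windows, and the RUNX-type letters TGTGGT, found in 14.0%, had no match in these 3. A match describes letters only, and all 3 windows examined held one.

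The deposited libraries held between 36413830 and 174795636 gene UMIs (unique molecular identifiers, each standing for 1 captured RNA molecule). After filtering, 7146 control, 5860 Mll3-labelled, 5350 Mll4-labelled and 6917 Mll3/4-labelled cells remained, with median depths of 15754, 16963.5, 5142 and 9965 UMIs. The targeted genes did not follow every label: over all kept cells Kmt2c was at 47.9, 27.2, 59.2 and 34.8 CPM in that order (UMI counts scaled to a common library total), and Kmt2d between 21.6 and 25.8. Counting at the 3′ end does not read a deletion inside a gene, so these levels do not check the deletions, and the libraries are named by their labels. Xist was at 0.519 CPM in the Mll4-labelled library and between 955 and 1839 in the others, so sex of the donor cells differed along with the label there and cannot be told apart from it. With 1 library per group there is no replicate error and no test, and every interval is a 95% interval for counting error only, exact Poisson for CPM, exact binomial for shares of cells and exact conditional binomial for ratios. Where 0 counts were read, the limit given is instead that of 3 counts. Each statement therefore compares libraries, not conditions. Cells were clustered without the 5 members, and 11 classes were named from fixed markers with the ending "-like".

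Over all kept cells the 5 receptors were higher in the Mll4-labelled library and lower in the Mll3/4-labelled library, with Csf2ra the exception to the size of that second difference. Csf1r was at 3.83 CPM (3.53 to 4.16) in control, 3.86 (3.54 to 4.21) in the Mll3-labelled, 10.3 (9.27 to 11.5) in the Mll4-labelled and 0.618 (0.456 to 0.820) in the Mll3/4-labelled library. Csf3r was at 23.0 (22.2 to 23.7), 17.3 (16.6 to 18.0), 34.3 (32.3 to 36.4) and 1.18 CPM (0.955 to 1.45) in the same order. The Mll4-labelled library was the highest for both, and the Mll3/4-labelled library was the lowest with no overlap of intervals. Csf2ra was at 43.8 (42.8 to 44.9), 34.1 (33.2 to 35.1), 96.7 (93.4 to 100.2) and 26.4 CPM (25.3 to 27.6). Csf2rb was at 17.7 (17.1 to 18.4), 12.7 (12.2 to 13.4), 49.1 (46.7 to 51.5) and 1.35 CPM (1.11 to 1.64), and Csf2rb2, the least read of the 5 in every library, was at 1.58 (1.39 to 1.79), 0.728 (0.592 to 0.886), 4.12 (3.45 to 4.87) and 0.103 CPM (0.0445 to 0.203). The alpha chain thus kept 2050 UMIs in the Mll3/4-labelled library, where the common beta chain had 105 and the second beta chain 8. In sums over mixed cells, fewer cells of a type and less RNA per cell cannot be told apart; the classes below divide them.

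**Figure D1:**
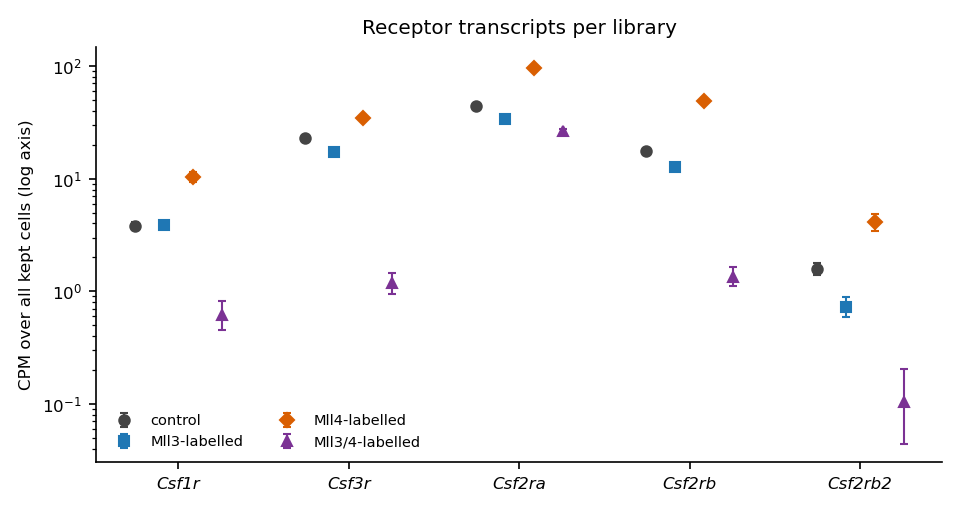
Level of each receptor gene in CPM (logarithmic axis) over all kept cells of the 4 libraries, with 95% counting intervals as bars. The Mll4-labelled library is highest for every gene, and in the Mll3/4-labelled library Csf2ra stays at 26.4 CPM while the other 4 lie between 0.103 and 1.35 CPM.

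As log2 ratios to control without a pseudocount, the Mll4-labelled library differed by 1.43 (1.23 to 1.63) for Csf1r, 0.58 (0.48 to 0.68) for Csf3r, 1.14 (1.08 to 1.20) for Csf2ra, 1.47 (1.38 to 1.56) for Csf2rb and 1.38 (1.07 to 1.69) for Csf2rb2. A gene is called here when it has at least 20 counts in either library and at least a 2-fold ratio after adding 1 CPM to both sides. By that rule 3 of 5 members were called higher, against 5.74% of the 14452 genes tested, and Csf2rb2 fell just short at 0.99. The Mll3/4-labelled library differed by −2.63 (−3.09 to −2.21) for Csf1r, −4.28 (−4.59 to −3.98) for Csf3r, −0.73 (−0.80 to −0.66) for Csf2ra, −3.71 (−4.01 to −3.43) for Csf2rb and −3.94 (−5.17 to −2.94) for Csf2rb2. There 4 of 5 were called lower, against 11.7% of 15158 genes called lower and 12.0% called higher. In the Mll3-labelled library no member was called, where 0.467% of 14550 genes were called lower and 0.199% higher. Its ratios were 0.01 (−0.16 to 0.18) for Csf1r, −0.41 (−0.48 to −0.33) for Csf3r, −0.36 (−0.42 to −0.31) for Csf2ra, −0.48 (−0.56 to −0.39) for Csf2rb and −1.12 (−1.47 to −0.78) for Csf2rb2, so the 4 chains other than Csf1r were read lower. The median over the members, with the pseudocount, was −0.39, 1.12 and −1.58 in the Mll3-, Mll4- and Mll3/4-labelled libraries, beside −0.04, 0.02 and −0.01 over all genes. The 3 comparisons share the control library and are not independent of each other.

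In control cells Csf1r was concentrated in the monocyte line. It was at 61.5 CPM (54.4 to 69.2) in monocyte/macrophage progenitor-like cells, 16.1 (13.8 to 18.6) in granulocyte progenitor-like and 6.43 (5.01 to 8.12) in lymphoid-primed progenitor-like cells, and these 3 levels do not overlap. HSC/MPP-like cells, the class of stem cells and multipotent progenitors, followed at 1.85 (1.19 to 2.73) and neutrophil-like cells at 1.08 (0.709 to 1.59), whose intervals overlap. Erythroid progenitor-like cells were at 0.156 (0.0780 to 0.279), and basophil/mast-like cells had 0 counts, which allows up to 2.36 CPM. Monocyte/macrophage progenitor-like cells held 46.3% of the library's Csf1r UMIs and granulocyte progenitor-like cells 30.1%.

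The Csf3r distribution in control was broad across stem, progenitor and granulocyte classes. Granulocyte progenitor-like cells were at 60.2 CPM (55.7 to 65.0) and neutrophil-like cells at 59.1 (56.0 to 62.2), which counting error does not separate. Lymphoid-primed progenitor-like cells at 48.1 (44.1 to 52.4), HSC/MPP-like cells at 46.7 (43.1 to 50.5) and monocyte/macrophage progenitor-like cells at 41.2 (35.5 to 47.7) also overlap as neighbours. The stem cell class thus carried this receptor at a level not far below the granulocyte classes. Basophil/mast-like cells at 14.2 (8.40 to 22.4), B-cell progenitor-like cells at 2.84 (1.30 to 5.39) and erythroid progenitor-like cells at 0.625 were the low end.

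Csf2ra, the GM-CSF binding chain, was read in every class. Neutrophil-like cells were highest at 134 CPM (129 to 139), then granulocyte progenitor-like cells at 104 (98.2 to 110.3) and monocyte/macrophage progenitor-like cells at 75.5 (67.6 to 84.0), each clear of the next. HSC/MPP-like cells at 34.0 (30.9 to 37.2), basophil/mast-like at 33.1 (23.8 to 44.7), lymphoid-primed progenitor-like at 32.3 (29.0 to 35.9), B-cell progenitor-like at 30.9 (25.1 to 37.7) and megakaryocyte-like cells at 25.9 (23.3 to 28.6) form a plateau whose neighbours overlap. Erythroid progenitor-like cells were lowest at 10.1 (9.37 to 10.9). B-cell progenitor-like cells therefore carried the alpha chain at about the level of the stem cell class.

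The common beta chain Csf2rb had another order, with basophil/mast-like cells at the top with 94.5 CPM (78.4 to 113). Neutrophil-like cells followed at 62.1 (59.0 to 65.4), monocyte/macrophage progenitor-like at 42.1 (36.3 to 48.6), granulocyte progenitor-like at 26.3 (23.4 to 29.5) and lymphoid-primed progenitor-like cells at 22.9 (20.1 to 25.9), of which only the last pair overlaps. HSC/MPP-like cells at 18.8 (16.6 to 21.3) overlap with the lymphoid-primed class, and B-cell progenitor-like cells were at 5.67 (3.36 to 8.97). Csf2rb2 was still more restricted: 39.4 CPM (29.2 to 51.9) in basophil/mast-like cells against 4.96 (4.11 to 5.94) in neutrophil-like and 1.77 (1.14 to 2.64) in HSC/MPP-like cells. Basophil/mast-like cells were 1.69% of control cells and held 20.6% of its Csf2rb2 UMIs. The coding sequences of this pair are 95.2% identical over 2631 aligned bases, but none of the 451 windows of 50 bases in the last 500 bases of either transcript is shared. Reads near the 3′ end can therefore be assigned to one copy, while 18.4% of Csf2rb windows and 19.0% of Csf2rb2 windows over the whole transcripts are shared, so some uncertainty between the copies remains.

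**Figure D2:**
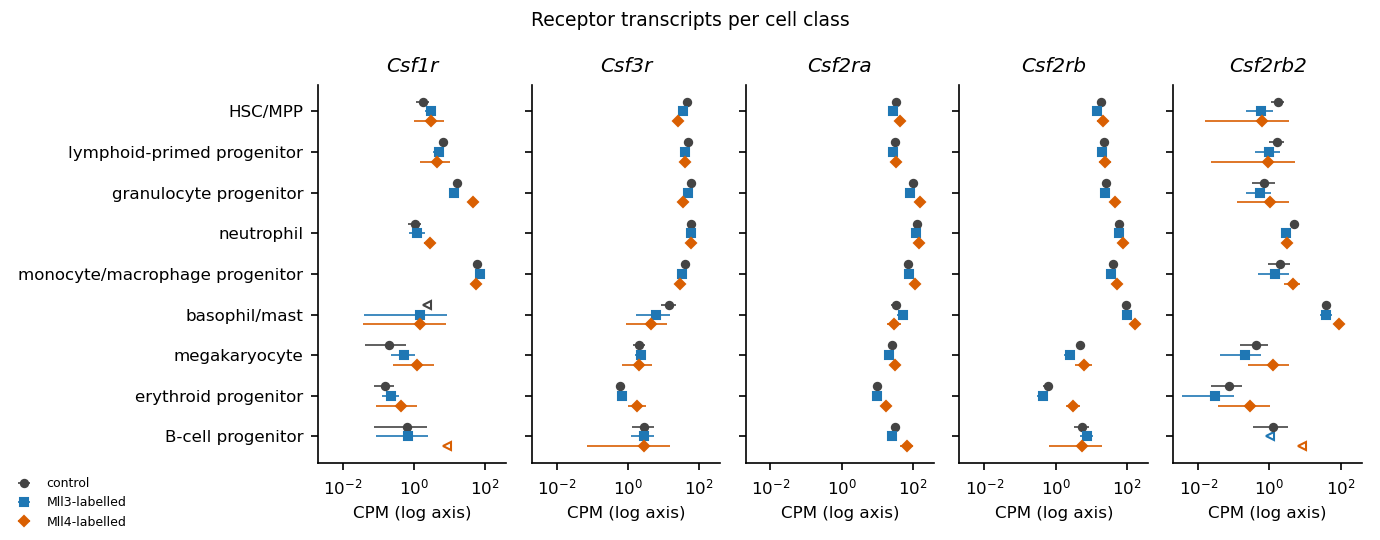
Level of each receptor gene in CPM (logarithmic axis) in the marker-named classes of the control, Mll3-labelled and Mll4-labelled libraries, with 95% counting intervals; open triangles pointing left mark the limit of 3 counts where 0 counts were read. Csf1r peaks in monocyte/macrophage progenitor-like cells at 61.5 CPM in control, and Csf2rb and Csf2rb2 peak in basophil/mast-like cells at 94.5 and 39.4 CPM.

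Within neutrophil-like cells of the control library the clusters differed. From cluster 9 to cluster 10 to the Retnlg-led cluster 11, Retnlg being a gene of late neutrophils, Csf3r was at 47.7, 64.8 and 82.0 CPM and Csf2rb2 at 3.39, 5.59 and 8.67 CPM. Both receptors were thus highest in the late cluster, although for Csf2rb2 the intervals of clusters 10 and 11 overlap. The Mll4-labelled neutrophil-like cells lay mostly in cluster 12 (1915 cells) and cluster 11 (736 cells), where control had 38 and 273 cells. In cluster 11, the one well filled in both, Csf3r was at 82.0 CPM in control, 75.8 in the Mll3-labelled and 82.5 in the Mll4-labelled library.

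In the Mll3-labelled library most class levels differed from control by less than 2-fold. Csf3r in neutrophil-like cells was at 60.3 CPM, a log2 ratio of 0.03 (−0.09 to 0.15), and in HSC/MPP-like cells at 35.1 CPM, a ratio of −0.41 (−0.60 to −0.22). Csf2ra in granulocyte progenitor-like cells was at 83.4 CPM, a ratio of −0.32 (−0.44 to −0.20), and Csf1r in monocyte/macrophage progenitor-like cells was at 71.7 CPM. None of these reached 2-fold. Csf2rb in megakaryocyte-like cells was lower, at 2.49 against 4.97 CPM, a ratio of −1.0 (−1.61 to −0.41) that is no call once 1 CPM is added. The lower Csf2rb2 was seen in neutrophil-like cells at 2.97 CPM, a ratio of −0.74 (−1.28 to −0.22), and in HSC/MPP-like cells at 0.598 CPM, a ratio of −1.57 (−3.15 to −0.24), but not in basophil/mast-like cells at 39.8 CPM, a ratio of 0.01. These differences between classes were not tested.

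In the Mll4-labelled library the receptors went different ways within the classes. Scaling by a trimmed mean of M values would move every ratio of its classes by between −0.32 and −0.10, which turns the sign of Csf3r in neutrophil-like cells and of Csf2rb in HSC/MPP-like cells among the ratios named here. Csf1r in granulocyte progenitor-like cells was at 45.3 CPM (36.4 to 55.6) against 16.1 in control, a log2 ratio of 1.49 (1.11 to 1.87), while in monocyte/macrophage progenitor-like cells, where it was highest in control, it was at 55.3 CPM, a ratio of −0.15 (−0.43 to 0.12). It was the 1 member of 4 called higher in granulocyte progenitor-like cells, against 8.0% of genes, and 0 of 4 were called in monocyte/macrophage progenitor-like cells, against 8.04%. The granulocyte progenitor-like class held clusters in different proportions: the F13a1-led cluster 7 had 207 control and 189 Mll4-labelled cells, and the Elane-led cluster 6 had 287 and 55. F13a1 marks the monocyte line and Elane, neutrophil elastase, the granulocyte line. In cluster 7 Csf1r was at 25.7 CPM (21.7 to 30.4) in control and 53.0 (42.5 to 65.3) in the Mll4-labelled library; in cluster 6 it was at 6.50 and 6.09 CPM (0.737 to 22.0), the latter from 2 counts. The higher Csf1r was thus read in the F13a1-led cluster, and in the Elane-led cluster the counts are too few to place the ratio. The summed level of the 7 monocyte markers in the class was 403 CPM in control, 393 in the Mll3-labelled and 1348 in the Mll4-labelled library, with none at 0, and their part in the Csf1r difference was not tested.

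Csf3r went the other way in the early classes of the Mll4-labelled library. In HSC/MPP-like cells it was at 25.6 CPM (18.3 to 34.7) against 46.7 in control, a log2 ratio of −0.87 (−1.36 to −0.41). The Hlf-led cluster 3 of this class held 632 control and 106 Mll4-labelled cells, with Csf3r at 48.6 CPM (43.6 to 54.0) and 11.6 CPM (3.75 to 27.0, from 5 counts), and the histone-gene-led cluster 17 held 280 and 143 cells, at 44.5 and 30.7 CPM (21.5 to 42.5). With the pseudocount the class ratio was −0.84, and −2.72 with another clustering seed, which drew this class differently. The G-CSF receptor was also lower in granulocyte progenitor-like cells, at 35.2 CPM (27.4 to 44.5) against 60.2, a ratio of −0.77 (−1.15 to −0.42). The point level was lower in both clusters of the latter class. It was 51.8 against 72.4 CPM in cluster 6, a difference within counting error, and 31.9 against 47.8 CPM in cluster 7. Monocyte/macrophage progenitor-like cells had a ratio of −0.47 (−0.83 to −0.11), and lymphoid-primed progenitor-like cells one of −0.25 (−0.73 to 0.19), whose interval includes 0. In neutrophil-like cells the G-CSF receptor was at 60.1 CPM, a ratio of 0.02 (−0.10 to 0.15). So the higher Csf3r of the whole library stood beside equal or lower levels in these classes, and neutrophil-like cells supplied 74.8% of its Csf3r UMIs there against 40.1% in control. No member was called higher in HSC/MPP-like (5 tested, 4.36% of genes), lymphoid-primed progenitor-like (4 tested, 6.13%), neutrophil-like (5 tested, 2.91%) or megakaryocyte-like cells (3 tested, 4.62%).

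The GM-CSF receptor chains were higher in several Mll4-labelled classes, mostly by less than 2-fold. Csf2ra was at 163 CPM in granulocyte progenitor-like cells, a ratio of 0.65 (0.46 to 0.83), at 116 CPM in monocyte/macrophage progenitor-like cells, 0.61 (0.40 to 0.83), and at 148 CPM in neutrophil-like cells, 0.15 (0.07 to 0.23). Csf2rb was at 46.3 CPM in granulocyte progenitor-like cells, a ratio of 0.81 (0.46 to 1.16), at 53.6 CPM in monocyte/macrophage progenitor-like cells, 0.35 (0.05 to 0.65), and at 78.4 CPM in neutrophil-like cells, 0.34 (0.22 to 0.45). Both chains were thus read higher in all 3 myeloid classes, though in part by little more than genes in general. With the pseudocount, Csf2ra in neutrophil-like cells was 0.08 above the median ratio of all genes. Csf2rb in monocyte/macrophage progenitor-like cells was 0.13 above it, and the others between 0.27 and 0.54. The lowest values of the former ratios under the alternatives were 0.05 and 0.12. Most control and Mll4-labelled neutrophil-like cells also lay in different clusters. Csf2ra in B-cell progenitor-like cells was at 67.1 CPM (43.0 to 99.9) from 24 counts, a ratio of 1.12 (0.41 to 1.78). It was the 1 member tested and called there, against 8.06% of genes. With the pseudocount the ratio was 1.10, and scaling by the trimmed mean gave 0.85 and ended the call.

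Basophil/mast-like cells held the highest beta chain levels of the Mll4-labelled library too. Csf2rb was at 175 CPM (145 to 209) against 94.5 in control, a ratio of 0.89 (0.51 to 1.27), and Csf2rb2 at 89.0 CPM (68.1 to 114) against 39.4, a ratio of 1.18 (0.61 to 1.75). Csf2rb2 was the 1 of 3 members called higher, against 10.4% of genes. With the pseudocount its ratio was 1.16. It was 0.86 without doublet removal and 0.59 with the members kept in the clustering, and neither is a call. The summed level of the 6 basophil and mast markers was 12182 CPM in that library, and 3040.4 and 2599 in control and Mll3-labelled cells, with none at 0, and its part in the difference was not tested. In erythroid progenitor-like cells 1 of 3 members was called higher, against 4.42% of genes: Csf2rb at 3.17 CPM from 22 counts against 0.611 from 43, a ratio of 2.38 (1.57 to 3.15). Neutrophil markers summed to 2048 CPM in these cells and 349 in control. Neutrophil RNA in the ratio found in neutrophil-like cells would carry 0.692 CPM of Csf2rb with it in the Mll4-labelled library, beside the measured 3.17. In control it would carry 0.0996 CPM, beside 0.611. RNA carried over from other cells, such as basophil/mast-like cells, is not covered by this estimate, and the part of carried RNA in the difference was not tested. Without doublet removal the Csf2rb ratio with the pseudocount was 0.92 in place of 1.37, which ended the call.

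**Figure D3:**
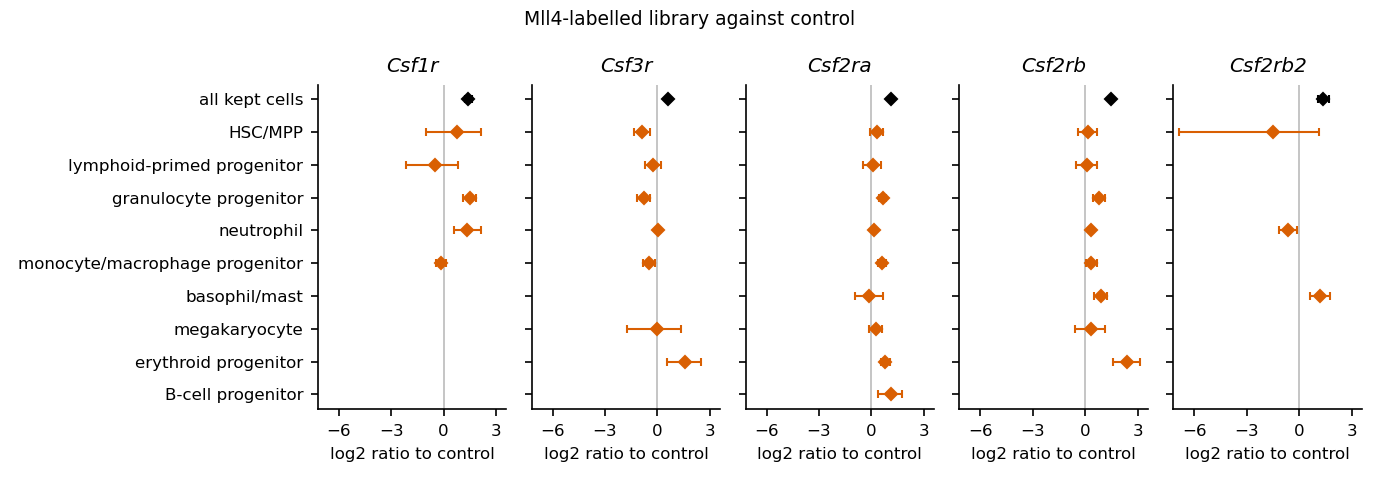
Log2 ratio of the Mll4-labelled library to control for each receptor gene, without a pseudocount, over all kept cells (black) and within each class with at least 20 counts, with 95% counting intervals; the line at 0 is equality. Csf3r lies at 0.58 over all cells but at −0.87 in HSC/MPP-like cells, and Csf1r at 1.49 in granulocyte progenitor-like cells.

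The Mll3/4-labelled library consisted almost wholly of B-cell progenitor-like cells, 98.8% of its kept cells, so the receptors were compared there with the 468 control cells of that class. Csf2ra was at 25.4 CPM (24.3 to 26.6) against 30.9 (25.1 to 37.7), a log2 ratio of −0.28 (−0.58 to 0.03) whose interval includes 0. Csf3r was at 0.316 CPM (0.203 to 0.471) from 24 counts in 8 cells against 2.84 (1.30 to 5.39) from 9 counts, a ratio of −3.17 (−4.32 to −1.88). Csf2rb was at 0.132 CPM (0.0632 to 0.242) from 10 counts against 5.67 (3.36 to 8.97) from 18 counts, a ratio of −5.43 (−6.71 to −4.24), below the count minimum for a call. Over the class as a whole, the alpha chain was thus read at nearly the control level. The G-CSF receptor and the common beta chain were far lower.

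Csf1r had 12 counts against 2 in these cells, at 0.158 and 0.630 CPM. Csf2rb2 had 0 counts among 75896480 UMIs, which allows up to 0.0395 CPM, against 4 counts in control. Of the 2 members with enough counts 1 was called lower, against 7.38% of genes called lower and 9.49% called higher. In the Mll3-labelled library the same class had Csf2ra at 26.1, Csf2rb at 7.65 and Csf3r at 2.78 CPM, all inside the control intervals. The summed level of the 8 B-cell progenitor markers was 10578 CPM in control, 8739 in the Mll3-labelled, 7242 in the Mll4-labelled and 10177 in the Mll3/4-labelled library.

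The Mll3/4-labelled cells lay in other clusters than the control cells of the class. Clusters 22, 23, 24, 25 and 27 held 2090, 3008, 227, 1302 and 198 of them and 1 control cell in all, while control had 313 cells in cluster 0 and 154 in cluster 1, so the class comparison is between different clusters. Csf2ra was between 13 and 31.7 CPM in those 5, and at 43.2 and 22.9 CPM in the 2 control clusters. Every Mll3/4-labelled cluster therefore carried the alpha chain, each at a level below that of control cluster 0. Csf3r was at 0.746 CPM in cluster 22, 0.232 in cluster 23 and 0.0489 in cluster 25. Csf2rb in control was at 11.2 CPM in cluster 0, the cluster with the pre-B-cell receptor genes Vpreb1 and Igll1 in the lead, and at 2.09 in cluster 1.

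Neutrophil RNA carried into B-cell progenitor-like droplets was also estimated, taking all neutrophil marker RNA read in the class as carried. Neutrophil markers summed to 1333 CPM in the control cells of the class and to 41.8 CPM in the Mll3/4-labelled ones, which is 0.613% and 0.0192% of the level in control neutrophil-like cells. At those shares neutrophil RNA would carry 0.362 CPM of Csf3r and 0.381 of Csf2rb into the control cells, beside the measured 2.84 and 5.67. It would carry 0.0114 CPM of Csf3r into the Mll3/4-labelled ones. For Csf2ra it would carry 0.821 and 0.0257 CPM, beside the measured 30.9 and 25.4. RNA of other myeloid cells is not covered by this. The control class also held more monocyte marker RNA, 151 against 13.5 CPM, and more Elane, 139 against 6.34 CPM. Their part was not tested.

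**Figure D4:**
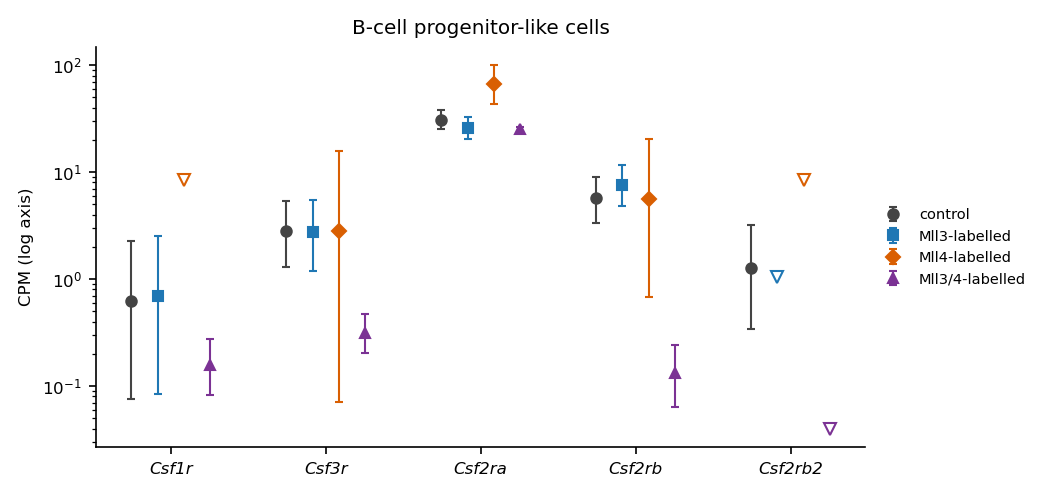
Level of each receptor gene in CPM (logarithmic axis) in B-cell progenitor-like cells of the 4 libraries, with 95% counting intervals; open triangles mark the limit of 3 counts where 0 counts were read. Csf2ra lies between 25.4 and 67.1 CPM in all libraries, and in the Mll3/4-labelled library Csf3r and Csf2rb lie at 0.316 and 0.132 CPM.

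The few myeloid cells left in the Mll3/4-labelled library did carry the receptors. In its 23 neutrophil-like cells Csf3r was at 106 CPM (79.1 to 139) from 52 counts, Csf2rb at 110.0 (82.6 to 143) from 54 counts and Csf2ra at 128 (98.6 to 164) from 63 counts. In its 10 granulocyte progenitor-like cells Csf1r had 17 counts among 339870 UMIs. These cells are under the minimum of 50 set for a comparison, so no ratio to control is given for them. B-cell progenitor-like cells held 97.7% of the library's UMIs and 94.0% of its Csf2ra UMIs, but 12 of its 48 Csf1r UMIs, 26.1% of its Csf3r and 9.52% of its Csf2rb UMIs.

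The share of each difference that goes with the class makeup was described by giving every class its control level and summing over each library's own classes. For the Mll4-labelled library this gave 8.36 CPM of Csf1r beside the measured 10.3, 37.8 of Csf3r beside 34.3, 79.4 of Csf2ra beside 96.7, 36.9 of Csf2rb beside 49.1 and 3.41 of Csf2rb2 beside 4.12. The control class levels in that library's proportions thus lie above the control library's own level for all 5. For the Mll3/4-labelled library the sums were 0.828 CPM beside 0.618 for Csf1r, 3.66 beside 1.18 for Csf3r, 31.9 beside 26.4 for Csf2ra, 6.27 beside 1.35 for Csf2rb and 1.30 beside 0.103 for Csf2rb2. The measured levels were lower than these sums by 1.63 for Csf3r, 2.21 for Csf2rb and 3.66 for Csf2rb2 on the log2 scale. These sums rest mainly on control B-cell progenitor-like cells, which had 9 counts of Csf3r, 18 of Csf2rb and 4 of Csf2rb2. Their counting error is not included in the gaps. In the Mll3-labelled library Csf2rb2 had the widest gap, 0.728 CPM measured beside 1.15.

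**Figure D5:**
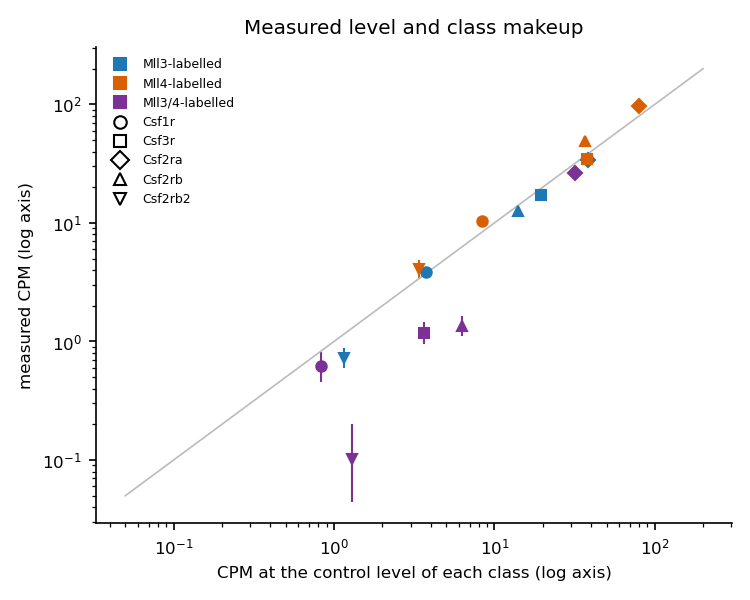
Measured CPM of each receptor gene in the 3 libraries labelled as deleted (vertical, logarithmic) against the CPM that control class levels would give at that library's class makeup (horizontal, logarithmic); the bars are 95% counting intervals of the measured level and the diagonal is equality. Points of the Mll4-labelled library lie near the diagonal, and Csf3r, Csf2rb and Csf2rb2 of the Mll3/4-labelled library lie below it, at 1.18, 1.35 and 0.103 CPM against 3.66, 6.27 and 1.30 CPM. Counting error of the horizontal values is not drawn.

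Surface antibodies divided the cells without use of transcripts, at thresholds set on raw counts of the control library and used unchanged in the others. In CD117+ Sca1+ cells, the gate that holds stem and multipotent progenitors, Csf3r was at 39.5 CPM (35.9 to 43.2) in control, 25.2 (22.6 to 28.1) in the Mll3-labelled, 21.7 (15.6 to 29.3) in the Mll4-labelled and 0.987 (0.671 to 1.40) in the Mll3/4-labelled library. Csf2rb in this gate was at 14.3 (12.3 to 16.7), 9.16 (7.61 to 10.9), 33.6 (25.9 to 42.8) and 0.605 CPM (0.364 to 0.945). So the G-CSF receptor was lower in all 3 libraries labelled as deleted, of which the Mll3/4-labelled one is nearly all B-cell progenitor-like cells, and the beta chain was lower in the Mll3-labelled and higher in the Mll4-labelled library. In the HSC/MPP-like class drawn from transcripts Csf2rb was nearer to control in the Mll4-labelled library, at 21.2 against 18.8 CPM, a ratio of 0.17 (−0.39 to 0.69). With the pseudocount this ratio was 0.16, and −4.24 with another clustering seed, which drew the class differently. The size of the seed value depends on the added 1 CPM. Csf2rb2, highest in basophil/mast-like cells, was at 1.36 CPM (0.776 to 2.20) in control and 7.23 (3.95 to 12.1, from 14 counts) in the Mll4-labelled library in this gate. Csf2ra in the gate was at 36.0, 24.9, 54.8 and 23.8 CPM.

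In CD117+ Sca1− CD34+ CD16/32+ cells, the gate of granulocyte-macrophage progenitors, Csf1r was at 30.4 CPM (27.1 to 34.0) in control, 25.6 (22.7 to 28.7) in the Mll3-labelled and 50.2 (41.8 to 59.8) in the Mll4-labelled library. Csf3r there was at 49.5 (45.3 to 54.1), 34.9 (31.5 to 38.6) and 35.8 CPM (28.7 to 44.0). The opposite directions of these receptors in the Mll4-labelled progenitors were thus also read when cells were divided by surface protein. At the control thresholds 61.2% of Mll4-labelled cells were positive for CD16/32, against 37.3% of control cells. Whether the gate holds like cells in each library was not tested. In CD117+ Sca1− CD34− CD16/32− cells, mostly erythroid and megakaryocyte precursors, Csf3r was at 2.64 CPM (2.26 to 3.06) in control and 0.880 (0.664 to 1.14) in the Mll3-labelled library, and Csf2rb at 2.42 (2.06 to 2.82) and 0.911 (0.692 to 1.18). These low levels were the widest Mll3-labelled differences of these 2 genes among the gates described. The Csf3r difference was not read in the erythroid and megakaryocyte classes drawn from transcripts. Erythroid progenitor-like cells were at 0.690 CPM in the Mll3-labelled and 0.625 in the control library, and megakaryocyte-like cells at 2.35 and 2.14. Csf2rb was at 0.446 and 0.611 CPM in the former and at 2.49 and 4.97 in the latter.

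The libraries differ in depth, so shares of cells with a UMI were also taken after thinning every cell to 2000 UMIs. Csf2ra was then read in 11.0% of control, 8.32% of Mll3-labelled, 19.2% of Mll4-labelled and 5.52% of Mll3/4-labelled cells, against 48.8%, 43.8%, 38.6% and 23.7% before thinning. Csf3r was read in 6.04%, 4.71%, 6.92% and 0.161% of thinned cells, against 31.8%, 25.8%, 17.2% and 0.477% before. The unthinned shares of the Mll4-labelled library were thus below control for genes whose CPM was above it. In HSC/MPP-like cells the thinned share for Csf3r was 8.66% in control, 7.29% in the Mll3-labelled and 3.25% in the Mll4-labelled library. In B-cell progenitor-like cells, which should not use Csf3r, it was 0.913% in control, from 4 of 438 cells. Cells left out for depth numbered 96, 173, 247 and 84 in library order.

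A GM-CSF receptor needs both chains, so their detection in the same cell was counted in thinned neutrophil-like cells. Csf2ra and Csf2rb were read together in 59 of 1752 control cells (3.37%), beside 3.05% as the product of the single shares. The Mll4-labelled library had 122 of 2651 cells (4.60%), beside 3.82%, and the Mll3-labelled library 15 of 997 (1.5%), beside 2.34%. Joint detection therefore lay near the product of the single shares in control, and at this depth most cells that hold both RNAs would be missed. In control granulocyte progenitor-like cells Csf1r and Csf3r were read together in 0 of 494 thinned cells, beside 0.362% as the product, which is below the upper exact limit of 0.744% for 0 cells.

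Ligands, partner chains, signalling proteins, targets and other receptors of the pathway were taken from 6 lists of 45 genes, of which 40 were tested over all cells. In the Mll4-labelled library 6 were called higher, where the share over all genes was 5.74%, and 0 lower; among the 6 were the kinases Fes (38.9 to 138 CPM) and Lyn (38.3 to 115), the myeloid transcription factors Gfi1 (17.8 to 70.2) and Cebpa (14.1 to 50.9), and the feedback inhibitor Socs3 (1.73 to 4.64). In the Mll3/4-labelled library 6 were called higher and 13 lower, beside 12.0% and 11.7% of all genes, so the number higher was near the background. Among those with the largest ratios were the interleukin-7 receptor Il7r (6.41 to 689 CPM), the erythropoietin receptor Epor (38.2 to 0.322), and the myeloid factors Cebpe (152 to 4.88), Spi1 (113 to 8.31) and Cebpa (14.1 to 0.438). In the Mll3-labelled library 0 were called higher and 1 lower, the feedback inhibitor Socs1 (6.33 to 2.54).

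Within B-cell progenitor-like cells 34 pathway genes were tested between the Mll3/4-labelled and control libraries, with 7 called higher and 10 lower, beside 9.49% and 7.38% of all genes. The 6 with the largest ratios were Spi1 (49.5 CPM in control, 3.95 in the Mll3/4-labelled library), the immediate early factor Egr1 (6.30 and 63.7), the myeloid and B-cell factor Irf8 (81.0 and 8.55), Cebpe (8.51 and 0.211), the phosphatase gene Ptpn6 (49.2 and 7.31) and the cytokine receptor Flt3 (5.67 and 29.8). Spi1, Irf8 and Cebpe were thus lower beside Csf3r and Csf2rb in the sums of this class, with Csf2ra near its control level over the class. Their joint detection in single cells was not counted, and carried neutrophil RNA was estimated for the receptors only. Within Mll4-labelled HSC/MPP-like cells, where Csf3r was lower, Cebpa was at 100.4 CPM against 20.2 and Egr1 at 25.6 against 8.12, and Cish, an inhibitor of cytokine signalling, was at 3.12 from 5 counts against 15.4.

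Likeness to each receptor was measured as Pearson's correlation of log2(CPM + 1) over 29 sums of 1 class in 1 library, among 9161 genes that reached 20 CPM. The sums share libraries and control cells, so the values are a description. Csf1r was most like Nrg1 (0.906), the macrophage glycoprotein gene Cd68 (0.897), Tctex1d1 (0.891), the hepatocyte growth factor receptor Met (0.887) and the integrin Itga1 (0.883). Csf3r was most like Lbp (0.964), the hexokinase Hk3 (0.946), Morc3 (0.926), Gpr160 (0.921) and the calcium channel Orai1 (0.914). Csf2ra was most like Nucb2 (0.926), Tmem38b (0.915), Mtus1 (0.912), Anxa3 (0.911) and Xbp1 (0.907).

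Csf2rb was most like Rab44 (0.940), the histidine decarboxylase gene Hdc (0.936), which is also one of the basophil and mast markers, Rin3 (0.923), Itm2b (0.910) and the kinase Fes (0.910). Csf2rb2 was most like Tmprss7 (0.912), Gm43445 (0.889), Lmo4 (0.888), Gm49794 (0.873) and Tiam2 (0.862). Among the members the closest pair was Csf2rb with Csf2rb2 (0.761), followed by Csf2rb with Csf3r (0.725), Csf2ra with Csf3r (0.713) and Csf2ra with Csf2rb (0.698). Csf1r and Csf2rb2 were unrelated across these sums (−0.004).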

How the data were processed

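The deposited matrices hold UMI counts per gene and barcode with no normalization, made with Cell Ranger 6.1.2 on mm10, per the submitters' processing notes; the annotation release and cell-calling settings are not given in the sources used here. Each matrix has 32285 gene features and 15 antibody features; the hashtags among the latter have no stated meaning and were not used. A barcode was kept when it had 500 or more genes, 1000 or more gene UMIs and no more than 10% of its UMIs from mitochondrial genes, which removed 22.3% of control, 33.2% of Mll3-labelled, 14.7% of Mll4-labelled and 10.6% of Mll3/4-labelled barcodes. Doublets were scored with Scrublet in scanpy 1.11.5, with the top-scoring cells taken out at a rate of 0.8% for each 1000 barcodes (8.01%, 7.59%, 5.29% and 6.63%). Kept cells that share a barcode sequence with another library numbered 31, 31, 21 and 29.

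Cells of all libraries were clustered together on 2000 variable genes without the 5 members, Xist, Y-linked and mitochondrial genes, with 30 components, 15 neighbours, Leiden resolution 1 and seed 0, giving 28 clusters named from 13 marker sets of 90 genes. Counts were summed per library, class, cluster or antibody gate and scaled to CPM. With 1 library per group no test across genes was run; a gene is called at 2-fold or more on log2(CPM + 1) with at least 20 counts in either library. Printed ratios have no pseudocount unless said. Ratios under the alternatives, and the main values set beside them, have it except where it was set to 0. Antibody thresholds came from a 2-component mixture on the control library, and those under 5 counts were not used. Named genes were the members, pathway genes called in a comparison (at most 6, by ratio; 1 gene is not reported here), and for each member the 5 genes with the highest correlation among those reaching 20 CPM. Alternatives covered scaling, count minimum, pseudocount, doublet and cell filters, cell weighting, thinning and clustering. This set of genes, though defined by symbol, was taken up with earlier results of these data known, as were the marker sets and lists. The calling and interval code was tested on simulated data. Software was Python 3.11.15, numpy 2.4.6, scipy 1.17.1, pandas 2.3.3, scikit-learn 1.9.0, igraph 0.11.9 and matplotlib 3.10.9.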

Additional observations from a re-analysis of the deposited data

Results flagged for a closer look

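The Csf3r ratio of the Mll4-labelled library to control had opposite signs in different classes: 1.59 on the log2 scale in erythroid progenitor-like cells, from 13 counts against 44, and −0.87 in HSC/MPP-like cells. With the pseudocount the erythroid ratio was 0.82, and 0.14 without doublet removal; neutrophil RNA would carry 0.530 of the 1.88 CPM measured there. The Csf2rb2 ratio of that library was 1.18 in basophil/mast-like cells and −0.63 in neutrophil-like cells, where most control and Mll4-labelled cells lay in different clusters. Each pair was picked out because the intervals of the 2 classes lie on opposite sides of 0, and with 1 library per group the difference between classes was not tested.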

How the results depend on the processing

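Over all kept cells, the number of members called in the Mll4- and Mll3/4-labelled libraries stayed within 1.5 times under the alternatives run, and in the Mll3-labelled library a pseudocount of 0 gave 1 call in place of 0. All-cell log2 ratios of the Mll4-labelled library ranged from 0.19 to 0.59 for Csf3r, 0.82 to 1.38 for Csf2rb2, 0.83 to 1.14 for Csf2ra, 1.14 to 1.43 for Csf1r and 1.18 to 1.47 for Csf2rb. Counts of called members within classes moved more: of 217 recomputed counts 36 moved. Of 801 recomputed ratios 94 moved outside the counting interval of the main ratio, and 1 was classed apart as reversed. The counting error of the recomputed ratio itself was not included. Of 82 ratios, 25 took the opposite sign in at least 1 alternative, 47 times in all. For example, Csf2rb in Mll4-labelled HSC/MPP-like cells was at 0.16, and at −4.24 with seed 1, whose size depends on the added 1 CPM. Csf2ra in Mll3-labelled basophil/mast-like cells was at 0.64, and at −2.01 after thinning. The thinned value rests on 1 of 67 cells with a UMI, against 8 of 121 in control. The 1 ratio past 2-fold to change sign was Csf1r in Mll4-labelled granulocyte progenitor-like cells, at −0.08 in the Elane-led cluster alone. In the Mll4-labelled library, HSC/MPP-like cells went from 0 calls to 1 with trimmed mean scaling, a pseudocount of 0, thinning, the members kept in the clustering or Leiden resolution 2, to 2 with the mean of cell shares and to 3 with seed 1. Granulocyte progenitor-like cells went from 1 to 2 with trimmed mean scaling and 3 with thinning, and neutrophil-like cells from 0 to 1 with a pseudocount of 0 or the mean of cell shares. Erythroid progenitor-like cells went from 1 to 0 with a minimum of 100 counts, no doublet removal or resolution 2, and to 2 with a pseudocount of 0 or the mean of cell shares. Basophil/mast-like cells went from 1 to 0 with trimmed mean scaling, a minimum of 100 counts, no doublet removal, at least 1000 genes with at most 5% mitochondrial UMIs, thinning or the members kept in the clustering, and to 2 with the mean of cell shares or seed 1. B-cell progenitor-like cells went from 1 to 0 with trimmed mean scaling, the minimum of 100 or the mean of cell shares. In the Mll3-labelled library 0 became 1 in HSC/MPP-like cells (pseudocount of 0, mean of cell shares, seed 1), basophil/mast-like cells (seed 1) and the Retnlg-led neutrophil cluster alone. For Mll3/4-labelled B-cell progenitor-like cells 1 became 0 with the minimum of 100 or thinning and 2 with no doublet removal. A minimum of 100 leaves fewer genes tested; otherwise the cause was not tested. The single-cluster alternatives were chosen after seeing the data. The lymphoid-primed class had under 50 cells without doublet removal, so that alternative was not run there. No paired analysis was possible because each group had 1 library and the labels give no replicate numbers. Depth limits Csf2rb2 and the low classes most: in Mll4-labelled B-cell progenitor-like cells a count of 0 allows up to 8.39 CPM.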
